A study of Mus musculus with 9 samples.

Results

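Complexes II to V of the respiratory chain were followed here through their nuclear genes. The set took every gene whose platform symbol is Sdha to Sdhd, starts with Uqcr, Cox4i, Cox5, Cox6, Cox7, Cox8 or Atp5, or is Cyc1 or Cycs, on a probe set that names 1 gene, with the probe set of highest mean standing for a gene that had several. This gave 48 of the 19938 genes on the array, namely 4 of complex II, 9 of complex III, 17 of complex IV, 17 of complex V and Cycs, which encodes cytochrome c. Cox7c was left out, because it is named only on probe sets that name more than 1 gene. A level filter at 3.86 (log2) kept 43 of the 48 genes for testing. The other 5 were complex IV isoforms of muscle or testis, Cox6b2, Cox7a1, Cox7b2, Cox8b and Cox8c, which read 3.35 to 3.88 on the 9 arrays.

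NIH-3T3, a mouse embryonic fibroblast line, was transfected with 25 nM of 1 of 3 RNAs and profiled 48 hours later. The groups were a miR-378 mimic, meant to supply the microRNA mmu-miR-378-3p, a miR-378 inhibitor, meant to block it, and a RISC-free siRNA as control, with 3 arrays each. The sources used here describe no mimic or inhibitor of another sequence, so responses to any such RNA cannot be told apart from effects of miR-378-3p. Cells of all groups went through the same DharmaFECT 1 transfection. The study set out to find the targets of miR-378-3p.

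Complex II passes electrons from succinate to ubiquinone, complex III passes them on to cytochrome c, and complex IV hands them to oxygen. Complexes III and IV pump protons, and complex V, the ATP synthase, lets them flow back through its ring of c subunits to make ATP. The hairpin of miR-378 lies in an intron of Ppargc1b, which encodes a coactivator of nuclear genes for mitochondrial proteins.

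The values are log2 signals of an expression array, so levels are compared within a probe set only. All 9 fibroblast markers examined passed the level filter, with group means of 6.76 to 11.29 (log2). With the inhibitor 2 of them fell, Postn by 0.58 ± 0.07 and Col3a1 by 0.22 ± 0.06 (SE; limma, adjusted p = 0.000784 and 0.0427), and with the mimic Thy1 rose by 0.38 ± 0.06 (SE; limma, adjusted p = 0.00823). The part of these shifts in the results below was not tested. Of 19 markers of macrophages, epithelium, endothelium and muscle, 8 passed it, the highest group mean was 4.91 (Ckm), and limma called 0 of the 8 with either RNA (unadjusted p under 0.05 for 1 marker with each). Mimic 3 and inhibitor 1 lay at the ends, -20.5 and 20.9, of the first principal component of all genes tested, where the controls lay between -4.38 and -2.78. The 75th percentile of all probe sets was 5.55 on mimic 3 and 5.76 on inhibitor 1, the lowest and highest of the 9 arrays. The labels do not say that the 3 samples of a group came from separate cultures, so a p-value here speaks of the scatter among these arrays, and that scatter may be technical alone.

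The first comparison asked which subunit genes differed between the inhibitor and the control arrays. Whether miR-378-3p was blocked was not measured in the values followed here. Uqcrh, Cox7a2l, Cox6b1, Cox4i1, Cox6c, Cox8a, Atp5md and Atp5mpl fell, by 0.25 to 0.51 on the log2 scale, and no subunit gene rose. None of the 8 encodes a catalytic or a redox subunit. For complex IV this was fixed in advance, since its catalytic core is encoded in the mitochondrial genome and lies outside the set. The genes for the catalytic centre of the ATP synthase, for cytochrome c and for the redox subunits of complexes II and III did not pass the threshold. Only a few of the 43 genes are of these kinds, and whether they differ from the rest was not tested. In all, 8 of the 43 genes tested fell (18.6%, limma, adjusted p under 0.05), where 3.76% of all 11963 genes tested fell, and 0 rose, where 11.1% of all genes did. The median log2 difference, inhibitor minus control, was -0.10 over the 43 genes and 0.01 over all genes tested. Unadjusted p was under 0.05 for 17 of the 43.

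Order among the arrays showed the same side more widely. In 22 of the 43 genes (51.2%) each inhibitor array lay below each control array, against 12.8% of all genes tested. Atp5a1, Atp5b and Cyc1 had each inhibitor array above each control array (6.98%), against 24.9% of all genes. RNA of a whole culture was measured, so fewer cells of one state and less RNA per cell cannot be told apart here.

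**Figure D1:**
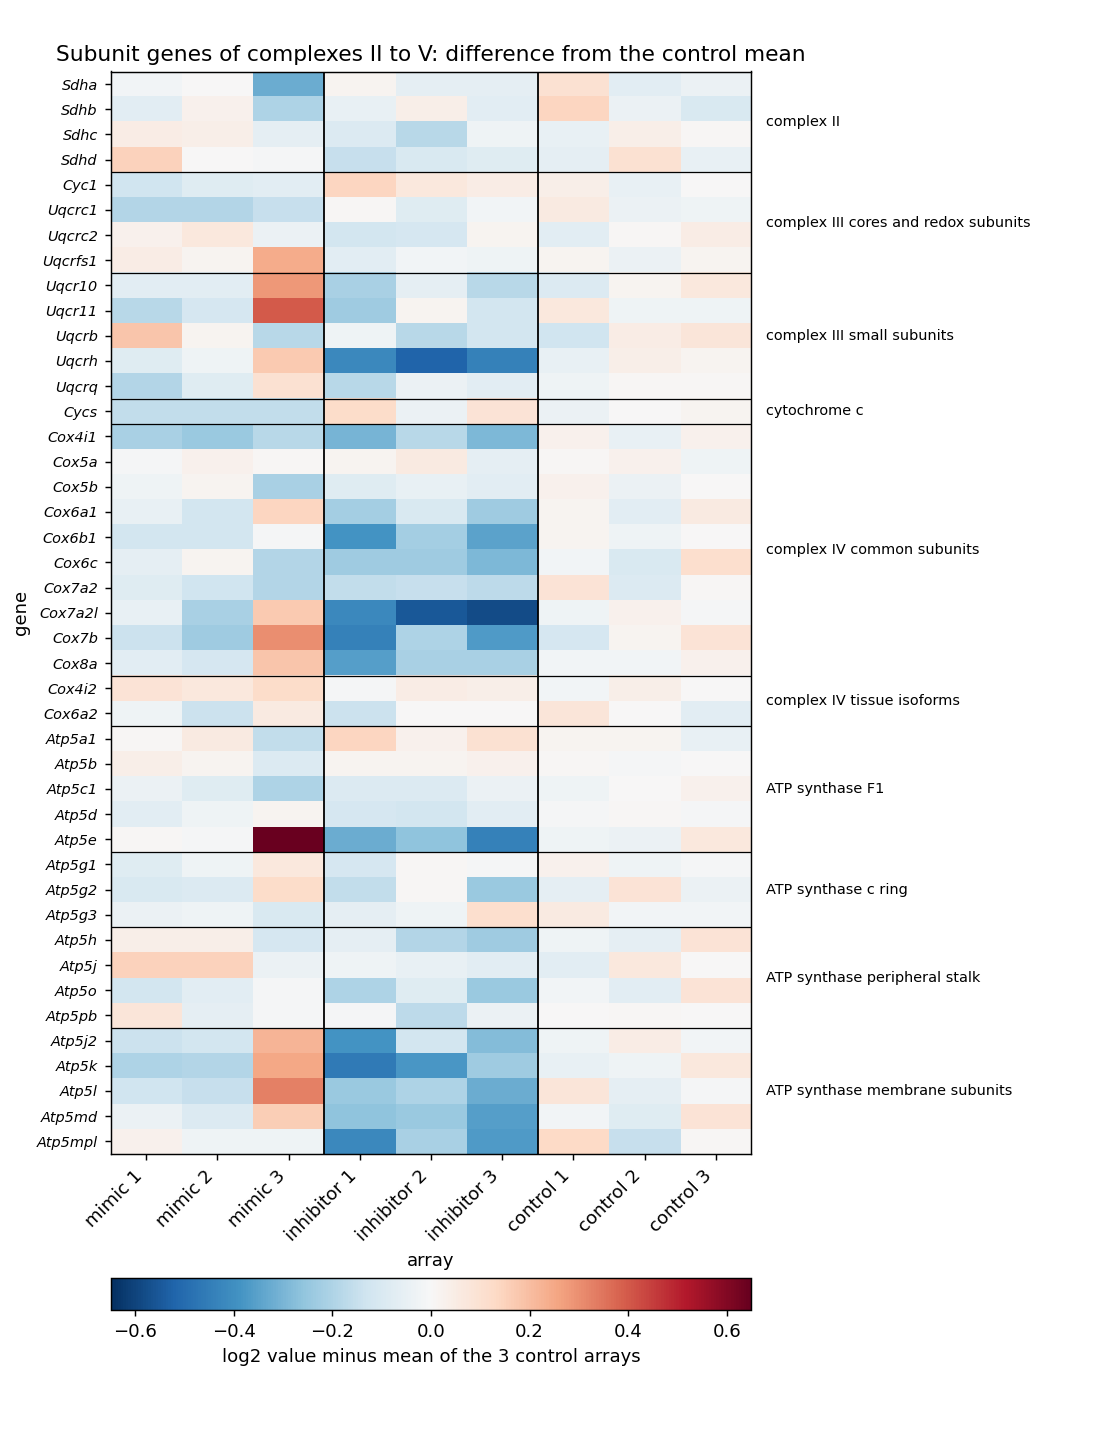
Each cell gives the log2 value of a subunit gene on 1 array minus the mean of that gene over the 3 control arrays, with genes down the page by complex and role, and mimic, inhibitor and control arrays from left to right. Blue is lower and red is higher than the control mean; Uqcrh and Cox7a2l are blue on all 3 inhibitor arrays, and mimic 3 is red for Atp5e, Atp5l and Uqcr11 where mimic 1 and mimic 2 are not.

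Complex II, the succinate dehydrogenase, showed no call with the inhibitor. Its members are Sdha, the flavoprotein that oxidises succinate, Sdhb, which carries the iron-sulfur centres, and the membrane anchors Sdhc and Sdhd. Their log2 differences from control were -0.03, -0.03, -0.10 and -0.10 (limma, adjusted p of 0.291 to 0.874). Sdhd read 7.51, 7.56 and 7.58 with the inhibitor, against 7.60, 7.76 and 7.61 in the controls, and these arrays did not overlap. Sdhc read 8.21, 8.12 and 8.27 with the inhibitor, against 8.25, 8.34 and 8.31 in the controls, and these overlapped.

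In complex III the hinge protein gene Uqcrh (gene ID 66576) fell. The hinge protein is a small acidic subunit that binds next to cytochrome c1. Uqcrh read 7.92, 7.82 and 7.90 with the inhibitor, against 8.29, 8.38 and 8.36 in the controls. Each inhibitor array lay below each control, and the values within each group lay close together. The means were 7.88 ± 0.05 with the inhibitor and 8.34 ± 0.05 in the controls (SD, n = 3 each), a log2 difference of -0.46 ± 0.07 (SE; limma, adjusted p = 0.00176), or 0.726 of the control level. The call held in each of the 9 fits that left out a single array.

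The other small subunits of complex III did not pass the threshold. Uqcrb, whose product binds near ubiquinone, Uqcrq, Uqcr10 and Uqcr11 had log2 differences of -0.11, -0.09, -0.15 and -0.11 (limma, adjusted p of 0.324 to 0.641). The core proteins Uqcrc1 and Uqcrc2 and the Rieske iron-sulfur protein Uqcrfs1 differed by -0.03, -0.07 and -0.04 (limma, adjusted p of 0.497 to 0.767). Cyc1 (gene ID 66445), which encodes the haem protein cytochrome c1, had the highest difference of complex III. It read 8.24, 8.17 and 8.15 with the inhibitor, against 8.14, 8.05 and 8.10 in the controls, which did not overlap, at a log2 difference of 0.09 ± 0.05 (SE; limma, adjusted p = 0.258). Cycs, the mobile carrier between complexes III and IV, differed by 0.06 ± 0.05 (SE; limma, adjusted p = 0.532).

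Complex IV, cytochrome c oxidase, held 5 of the 8 falls, with Cox7a2l placed there by its symbol. Its catalytic core is encoded in the mitochondrial genome, and the nuclear genes followed here encode the subunits around it. Of its 10 common subunit genes, Cox7a2l among them, 5 fell with the inhibitor, where 3.76% of all genes tested fell. In 9 of the 10 each inhibitor array lay below each control array, against 12.8% of all genes tested. The exception in order was Cox5a, a matrix-side subunit, at a log2 difference of 0.00 ± 0.05 (SE; limma, adjusted p = 0.975).

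Cox7a2l (gene ID 20463), also called SCAF1, encodes a relative of subunit VIIa that joins complexes III and IV into supercomplexes, and it differed most from control of the 43 genes. It read 7.37, 7.24 and 7.21 with the inhibitor, against 7.76, 7.82 and 7.78 in the controls. All 3 inhibitor arrays lay below the controls, at a mean of 7.27 ± 0.09 with the inhibitor against 7.79 ± 0.03 in the controls (SD, n = 3 each). The log2 difference was -0.51 ± 0.09 (SE; limma, adjusted p = 0.00359), or 0.701 of the control level. The second probe set of Cox7a2l, on which the fall was smaller, gave -0.35.

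Cox6b1 (gene ID 110323), a subunit on the side of the intermembrane space, read 7.59, 7.76 and 7.63 with the inhibitor, against 8.0, 7.95 and 7.98 in the controls. Its arrays did not overlap, and it fell by 0.32 ± 0.06 (SE; limma, adjusted p = 0.00521). Cox4i1 (gene ID 12857), the common isoform of subunit IV, read 7.92, 8.04 and 7.93 with the inhibitor, against 8.25, 8.17 and 8.25 in the controls. It fell by 0.26 ± 0.05 (SE; limma, adjusted p = 0.00786). The calls of Cox7a2l, Cox6b1 and Cox4i1 held in each of the 9 fits with a single array left out.

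Cox6c and Cox8a, single-span subunits, passed the threshold less firmly. Cox6c read 9.56, 9.56 and 9.50 with the inhibitor, against 9.77, 9.69 and 9.90 in the controls, and fell by 0.25 ± 0.07 (SE; limma, adjusted p = 0.0354). Cox8a read 8.30, 8.45 and 8.45 with the inhibitor, against 8.64, 8.64 and 8.69 in the controls, and fell by 0.26 ± 0.08 (SE; limma, adjusted p = 0.0467). In neither gene did an inhibitor array reach a control array. Their calls held in 3 and 2 of the 9 fits with a single array left out. Both ended without control 1, control 3, mimic 1 or any 1 of the inhibitor arrays, Cox8a also without control 2, and both after median centring or without the level filter (adjusted p up to 0.0869 and 0.0772 over the settings other than single arrays left out).

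Cox7b, Cox6a1, Cox7a2 and Cox5b, with log2 differences of -0.33, -0.18, -0.16 and -0.06, did not pass the threshold (limma, adjusted p of 0.0805 to 0.584). Cox7b read 7.87, 8.11 and 7.94 with the inhibitor, against 8.20, 8.33 and 8.40 in the controls, so its groups did not overlap although its spread was wide. Without mimic 3, Cox7b, Cox6a1 and Cox7a2 passed the threshold (limma, adjusted p = 0.00689, 0.0354 and 0.0469). Cox4i2, the isoform of lung and of cells short of oxygen, and Cox6a2, the heart and muscle isoform, stood near the level filter at 4.19 ± 0.03 and 4.30 ± 0.08 with the inhibitor, against 4.16 ± 0.03 and 4.34 ± 0.08 in the controls (SD, n = 3 each). Neither passed the threshold (limma, adjusted p = 0.806 and 0.711).

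In the ATP synthase the falls were those of Atp5md, which encodes the small membrane subunit DAPIT, and Atp5mpl, which encodes a small proteolipid. Atp5md (gene ID 66477) read 9.03, 9.05 and 8.93 with the inhibitor, against 9.27, 9.21 and 9.38 in the controls, and fell by 0.29 ± 0.07 (SE; limma, adjusted p = 0.0282). Atp5mpl (gene ID 70257) read 8.38, 8.59 and 8.43 with the inhibitor, against 8.93, 8.65 and 8.81 in the controls, and fell by 0.33 ± 0.08 (SE; limma, adjusted p = 0.0177). Neither pair of groups overlapped, and each call held in 5 of the 9 fits with a single array left out, ending without control 1, control 3, inhibitor 1 or inhibitor 3 (adjusted p up to 0.116 and 0.0742).

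The remaining membrane subunits of the ATP synthase, Atp5k (subunit e), Atp5l (subunit g) and Atp5j2 (subunit f), lay on the same side without passing the threshold. Atp5k had the lowest difference of complex V. It read 5.39, 5.47 and 5.62 with the inhibitor, against 5.80, 5.82 and 5.92 in the controls, at -0.35 ± 0.11 (SE; limma, adjusted p = 0.0581). Atp5l and Atp5j2 both differed by -0.26 (limma, adjusted p = 0.15 and 0.105). With mimic 3 left out, which enters the fit only through the shared estimate of spread, Atp5k, Atp5l and Atp5j2 passed the threshold (limma, adjusted p = 0.00243, 0.00521 and 0.0149). All 5 membrane subunit genes had each inhibitor array below each control array, against 12.8% of all genes tested.

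The F1 head and the c ring did not pass the threshold. Atp5a1 and Atp5b, the alpha and the catalytic beta subunit, differed by 0.09 ± 0.06 and 0.02 ± 0.05 (SE; limma, adjusted p = 0.396 and 0.805). Atp5a1 had the highest difference of complex V and read 10.47, 10.36 and 10.43 with the inhibitor, against 10.35, 10.35 and 10.28 in the controls. Of the rotor subunits, Atp5c1 (gamma), Atp5d (delta) and Atp5e (epsilon) differed by -0.07, -0.10 and -0.34 (limma, adjusted p of 0.146 to 0.43), and Atp5e passed the threshold with mimic 3 left out (adjusted p = 0.00171). The genes Atp5g1, Atp5g2 and Atp5g3, which encode the same c subunit, differed by -0.03, -0.13 and 0.00 (limma, adjusted p of 0.35 to 0.971). In the peripheral stalk, Atp5pb (subunit b), Atp5h (subunit d), Atp5j (coupling factor 6) and Atp5o (the oligomycin sensitivity protein) differed by -0.07, -0.16, -0.05 and -0.17 (limma, adjusted p of 0.0924 to 0.653).

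**Figure D2:**
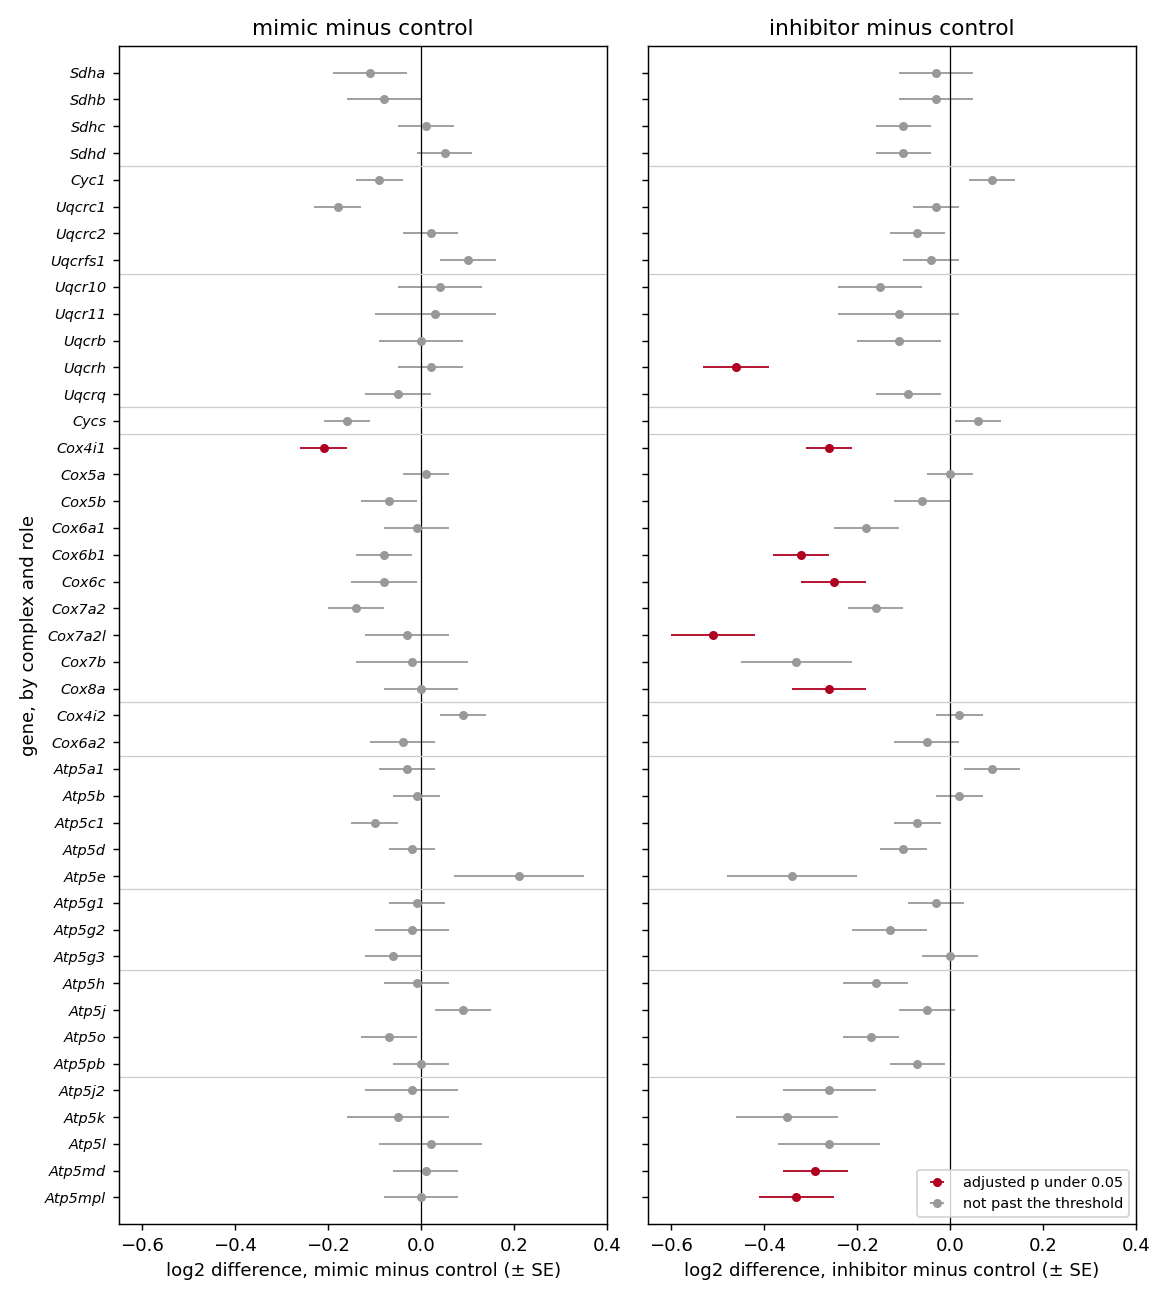
Points give the log2 difference from control of each of the 43 genes tested, with the mimic on the left and the inhibitor on the right, bars are standard errors of limma, and red marks an adjusted p under 0.05. The inhibitor panel has 8 red points, all to the left of 0, and the mimic panel has 1, Cox4i1.

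With the inhibitor the median log2 difference was -0.29 for the 5 membrane subunits of the ATP synthase, -0.25 for the 10 common subunits of complex IV, -0.12 for the peripheral stalk, -0.11 for the small subunits of complex III, -0.07 for F1, -0.06 for complex II, -0.04 for the cores and redox subunits of complex III and -0.03 for the c ring. The differences between these groups were not tested. On the single arrays the median of the membrane subunits lay at -0.39, -0.21 and -0.33 from the control mean with the inhibitor and at -0.13, -0.12 and 0.22 with the mimic. Inhibitor 1 was thus lowest and mimic 3 highest, the arrays with the highest and lowest 75th percentile of all probe sets, whose part in these differences was not tested. The common subunits of complex IV lay at -0.26, -0.19 and -0.26 on the inhibitor arrays and at -0.06, -0.12 and 0.00 on the mimic arrays.

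**Figure D3:**
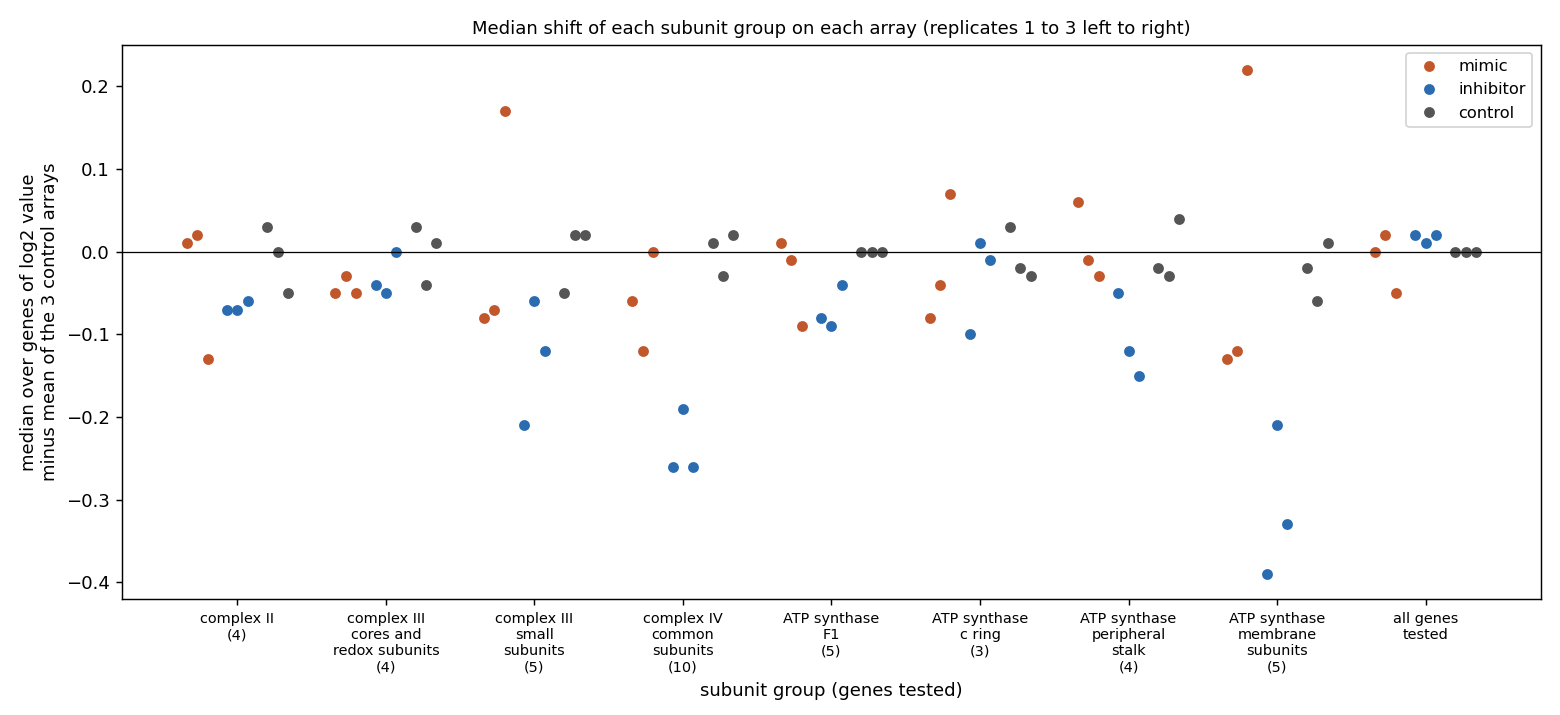
Each point is the median, over the genes of a subunit group, of the log2 value on 1 array minus the mean of the 3 control arrays, with the number of genes in brackets. The inhibitor points of the membrane subunits of the ATP synthase and of the common subunits of complex IV lie at -0.19 or below, while all genes tested lie between -0.05 and 0.02, and mimic 3 stands at 0.22 for the membrane subunits and 0.17 for the small subunits of complex III.

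The count of 8 falls depended on the arrays and on the scaling. Falls among all 11963 genes tested, 450 in the main fit, moved as well and are given beside each count. Without mimic 3 and inhibitor 1, 14 of the 43 genes fell (831 of all), and the median difference stayed at -0.10. Without mimic 3 alone 15 fell (723 of all). Without control 1, control 3, inhibitor 1 or inhibitor 3 alone 4 did (232 to 348 of all). After quantile normalization 12 fell (1022 of all), with a median of -0.16. The share of falls among all genes called was then 44.6% in place of 25.3%. After median centring 6 fell (270 of all), with a median of -0.08. Without the level filter 6 of 48 fell (418 of all 19938). Uqcrh, Cox7a2l, Cox6b1 and Cox4i1 passed the threshold under each alternative run.

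Of the 43 genes, 13 had more than 1 probe set, 35 in all, and for each of the 13 all probe sets pointed the same way with the inhibitor. The 6 probe sets of Atp5l gave -0.24 to -0.30 and the 3 of Atp5md gave -0.29 to -0.36. The largest gap was that of Cox7b, at -0.33 and -0.12. The 3 of Cycs gave 0.06, 0.12 and 0.23, the last on a probe set with a mean of 3.64, below the level filter. The probe sets of Atp5l, Atp5md, Cox7a2l, Cox7b, Cox6c and Uqcrb list the same transcripts gene by gene, and those of Cycs share a transcript, so they are no independent repeats, and whether some read copies of the gene elsewhere in the genome was not tested.

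Promoter sequence is shown for the genes with the 3 lowest adjusted p of inhibitor against control and for Cycs, which differed the other way between mimic and inhibitor. RefSeq promoter windows (GRCm38.p6, 250 bases before to 50 after the start) matched 36 of the 48 genes, with 39 windows in all. The stretch before the start was searched on both strands for 3 sets of letters. CCGGAAG is bound by GABPA and other ETS factors, GCGCATGCG by NRF1 and AAGATGGCG by YY1, factors known for driving respiratory chain genes. Capitals mark a match, and all 4 genes lie on the minus strand, so each run reads along the gene from 5′ to 3′.
Uqcrh, chr4:116075071-116075320: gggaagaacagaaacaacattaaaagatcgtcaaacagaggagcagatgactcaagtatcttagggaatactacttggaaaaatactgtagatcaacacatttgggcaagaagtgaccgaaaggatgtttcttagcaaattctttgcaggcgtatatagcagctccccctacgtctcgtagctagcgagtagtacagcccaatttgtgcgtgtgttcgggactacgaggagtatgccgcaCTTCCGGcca
Cox7a2l, chr17:83514334-83514583: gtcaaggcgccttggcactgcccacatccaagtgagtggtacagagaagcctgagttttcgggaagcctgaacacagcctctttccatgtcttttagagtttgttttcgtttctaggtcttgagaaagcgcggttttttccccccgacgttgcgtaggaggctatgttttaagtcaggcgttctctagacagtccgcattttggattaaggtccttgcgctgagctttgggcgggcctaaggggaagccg
Cox6b1, chr7:30626115-30626364: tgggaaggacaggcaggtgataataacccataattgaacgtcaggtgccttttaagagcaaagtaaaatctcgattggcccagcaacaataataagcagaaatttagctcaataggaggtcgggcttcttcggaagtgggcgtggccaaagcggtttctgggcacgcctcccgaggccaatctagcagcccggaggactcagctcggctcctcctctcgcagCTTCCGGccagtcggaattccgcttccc
Cycs, chr6:50566570-50566819: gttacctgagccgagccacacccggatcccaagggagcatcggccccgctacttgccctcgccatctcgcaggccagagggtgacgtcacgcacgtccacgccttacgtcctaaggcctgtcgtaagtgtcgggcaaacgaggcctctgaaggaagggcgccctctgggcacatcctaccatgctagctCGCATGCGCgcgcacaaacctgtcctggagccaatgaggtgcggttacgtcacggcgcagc

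The ETS letters began 10 bases before the start of Uqcrh and 28 before that of Cox6b1, and the NRF1 letters 61 before that of Cycs, each as the reverse complement, CTTCCGG and CGCATGCGC. The Cox7a2l stretch held none of the 3. Over the 250 bases before the start, 23.1% of the 39 member windows held the ETS letters, against 6.91% of all 32851 windows. The NRF1 letters, which can match both strands at the same place, stood in 12.8% of the member windows and in 1.45% of all, and the YY1 letters in 2.56% and 0.606%. A match of letters shows neither binding nor a cause of the differences above.

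The second comparison asked which subunit genes differed between the mimic and the control arrays. Cox4i1 was the only 1 of the 43 genes to pass the threshold (2.33%), and it fell, where 2.45% of all genes tested fell. None rose, where 1.1% of all genes did (limma, with 4 of the 43 at an unadjusted p under 0.05). Cox4i1 read 8.01, 7.98 and 8.04 with the mimic, against 8.25, 8.17 and 8.25 in the controls, so the groups did not overlap. It fell by 0.21 ± 0.05 (SE; limma, adjusted p = 0.04995), which lies at the threshold, and the call held in 2 of the 9 fits with a single array left out. It ended without control 1, 2 or 3, mimic 1 or 2, or inhibitor 1 or 3, and after either rescaling of the arrays. The mimic and inhibitor differences of Cox4i1, -0.21 and -0.26, share the same 3 control arrays.

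The median log2 difference, mimic minus control, was -0.02 over the 43 genes and -0.01 over all genes tested, and after quantile normalization 0.01 and 0.00, with the share of falls among all genes called at 56.7% in place of 68.9%. In 6 genes (14%) each mimic array lay below each control array, against 12.7% of all genes. These were Cox4i1, Cycs, Cyc1, Uqcrc1, Atp5c1 and Atp5g3. Cox4i2 alone had each mimic array above the controls, against 8.67% of all genes. It read 4.25, 4.23 and 4.28 with the mimic, against 4.14, 4.20 and 4.16 in the controls, at 0.09 ± 0.05 (SE; limma, adjusted p = 0.368).

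Cycs, cytochrome c itself, read 8.08 on all 3 mimic arrays, against 8.20, 8.24 and 8.26 in the controls, at -0.16 ± 0.05 (SE; limma, adjusted p = 0.156). Uqcrc1, a core protein of complex III, read 8.51, 8.51 and 8.55 with the mimic, against 8.76, 8.66 and 8.67 in the controls, at -0.18 ± 0.05 (SE; limma, adjusted p = 0.0879). Both thus lay below the controls on each mimic array without passing the threshold. The highest differences of the complexes with the mimic were those of Sdhd (0.05 ± 0.06), Uqcrfs1 (0.10 ± 0.06), Cox4i2 and Atp5e (0.21 ± 0.14), and the lowest of complexes II and V those of Sdha (-0.11 ± 0.08) and Atp5c1 (-0.10 ± 0.05), all SE, with limma's adjusted p between 0.368 and 0.757.

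Of these, Sdhd read 7.81, 7.66 and 7.65 with the mimic, against 7.60, 7.76 and 7.61 in the controls. Uqcrfs1 read 5.86, 5.83 and 6.05 with the mimic, against 5.83, 5.77 and 5.83 in the controls. Both overlapped, and mimic 3 carried the height of Uqcrfs1. Atp5c1, the gamma subunit, read 10.01, 9.97 and 9.85 with the mimic, against 10.02, 10.05 and 10.08 in the controls, below them on each array by little on mimic 1.

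The spread of the subunit genes was widest with the mimic. Atp5e, the epsilon subunit of the rotor, read 5.94, 5.92 and 6.57 with the mimic, against 5.90, 5.89 and 6.0 in the controls, so its difference of 0.21 rests on mimic 3 and was 0.00 without it. Mimic 3 was the highest of the 3 mimic arrays in 24 of the 43 genes and the lowest in 15. Sdha showed the opposite order, with 7.82, 7.84 and 7.52 with the mimic, against 7.94, 7.77 and 7.80 in the controls. The median SD over the 43 genes was 0.105 with the mimic, 0.074 with the inhibitor and 0.056 in the controls, and over all genes tested it was 0.087 with the mimic, 0.075 with the inhibitor and 0.051 in the controls. Without mimic 3 the median mimic difference of the 43 genes was -0.06.

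**Figure D4:**
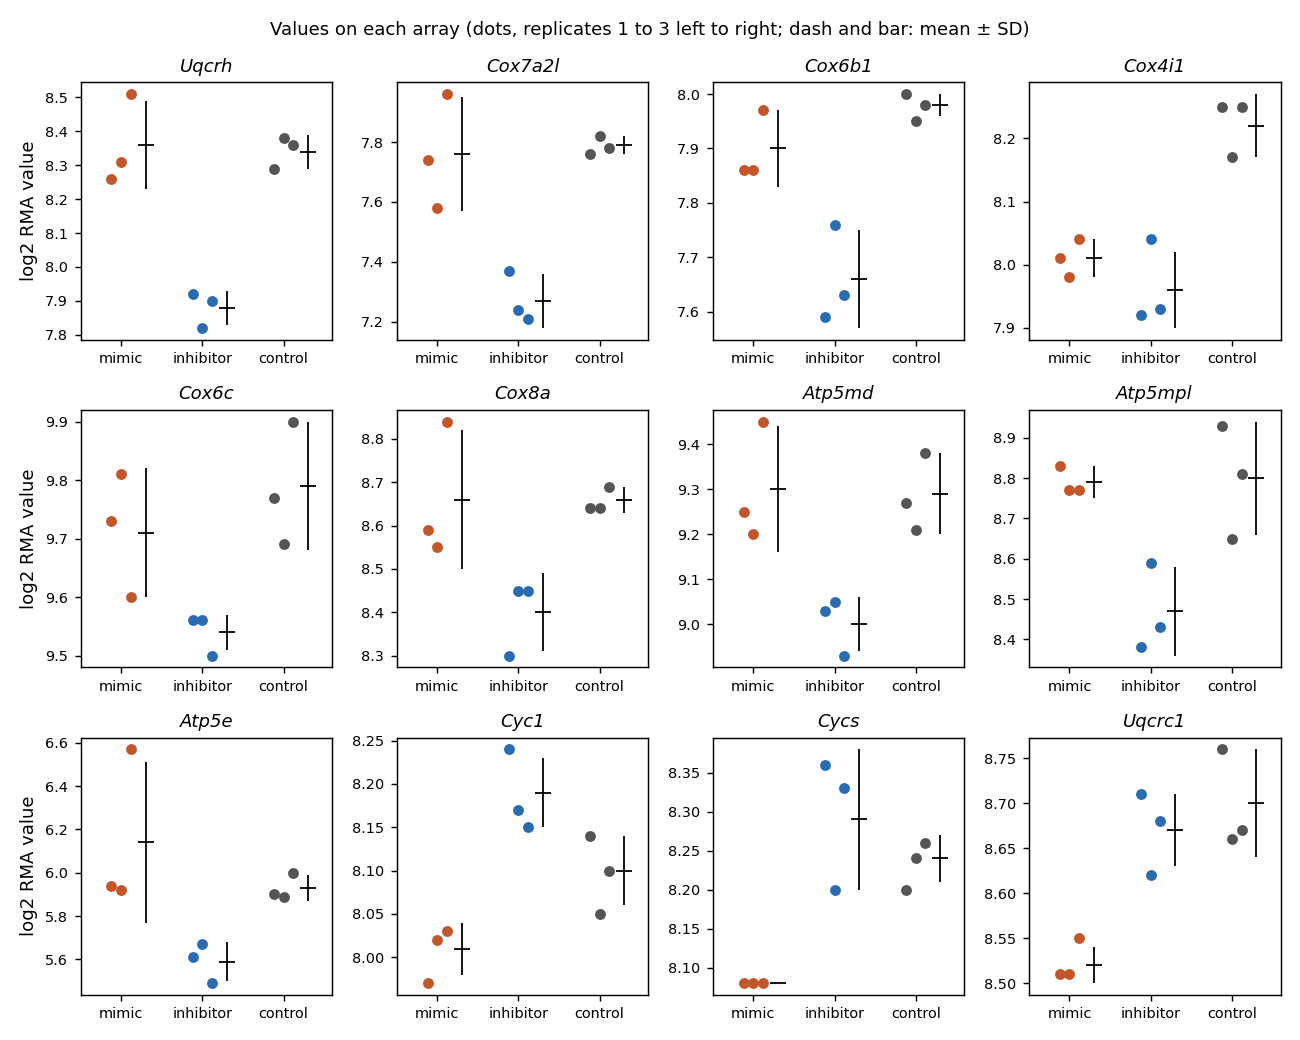
Dots are log2 values on the single arrays of the 12 genes past the threshold in at least 1 of the 3 comparisons, and the dash with its bar is the mean ± SD of the group (n = 3); each panel has its own axis, which does not start at 0. The inhibitor dots of Uqcrh, Cox7a2l and Cox6b1 lie below all other arrays, and the mimic dots of Cycs, Cyc1 and Uqcrc1 lie below all other arrays.

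Mimic and inhibitor were also set against each other, which leaves out the control level. Here 7 of the 43 genes (16.3%) were higher with the mimic, against 6.91% of all genes tested, and 3 (6.98%) were lower, against 19.9% of all genes. The 7 were Uqcrh, Cox7a2l, Cox6b1, Cox8a, Atp5md, Atp5mpl and Atp5e. All but Atp5e also fell with the inhibitor against control, a comparison that shares the same 3 inhibitor arrays. None of the 7 passed the threshold with the mimic against control. The 3 were Cyc1, Cycs and Uqcrc1, that is cytochrome c, cytochrome c1 and a core protein of complex III. The median log2 difference, mimic minus inhibitor, was 0.10 over the 43 genes and -0.02 over all genes tested.

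Uqcrh read 8.26, 8.31 and 8.51 with the mimic, against 7.92, 7.82 and 7.90 with the inhibitor, a log2 difference of 0.48 ± 0.07 (SE; limma, adjusted p = 0.0007). Cox7a2l read 7.74, 7.58 and 7.96 with the mimic, against 7.37, 7.24 and 7.21 with the inhibitor, at 0.49 ± 0.09 (SE; limma, adjusted p = 0.00244). For both genes the mimic arrays lay above the inhibitor arrays without overlap. The differences of Cox6b1, Cox8a, Atp5md and Atp5mpl were 0.24, 0.26, 0.30 and 0.33 (limma, adjusted p of 0.0109 to 0.0281). That of Atp5e was 0.55 ± 0.14 (SE; limma, adjusted p = 0.0166), and 0.34 with mimic 3 left out. The calls of Atp5e and Atp5md ended without inhibitor 3, and that of Cox8a without mimic 3 or inhibitor 1. Without mimic 3 and inhibitor 1 together those of Cox6b1 and Cox8a ended, and in the fit of 6 arrays those of Atp5e and Cox8a.

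Cycs (gene ID 13063) read 8.08 on all mimic arrays, against 8.36, 8.20 and 8.33 with the inhibitor, a log2 difference of -0.21 ± 0.05 (SE; limma, adjusted p = 0.0125). Cyc1 read 7.97, 8.02 and 8.03 with the mimic, against 8.24, 8.17 and 8.15 with the inhibitor, at -0.18 ± 0.05 (SE; limma, adjusted p = 0.0205). In both genes the controls lay between the other groups in their means, at 8.24 and 8.10. Uqcrc1, at -0.15 ± 0.05 (SE; limma, adjusted p = 0.0493), held its call in 1 of the 9 fits with a single array left out, that without inhibitor 2, and also lost it after quantile normalization, under the stricter level filter, with trend, in the fit of 6 arrays and without mimic 3 and inhibitor 1 together. Cyc1 lost its call without mimic 1 or inhibitor 1, after quantile normalization and in the fit of 6 arrays. Without mimic 1, or without inhibitor 1, 1 gene was lower in place of 3. There 1900 and 1637 of all 11963 genes were lower, in place of 2377. Without mimic 2, 11 genes were higher in place of 7, with 795 of all genes higher in place of 827. After quantile normalization 16 were higher and 1 was lower, with 1670 of all genes higher and 2028 lower. Of all genes then called, 54.8% were lower with the mimic in place of 74.2%.

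Other genes of the pathway were counted from lists drawn up with earlier results of these data known. Of 34 genes tested under complex I subunit symbols, Ndufa4 among them, 7 fell and 1 rose with the inhibitor. Of all genes tested, 3.76% fell and 11.1% rose. The median log2 difference of the 34 was -0.15, and with the mimic 0 passed the threshold (limma, 2 at an unadjusted p under 0.05). The falls were led by Ndufa13 (-0.48 ± 0.07), Ndufv3 (-0.41 ± 0.11) and Ndufa3 (-0.39 ± 0.07), and the rise was that of Ndufa9 (0.49 ± 0.10, all SE; limma, adjusted p of 0.00178 to 0.0272).

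Of 13 regulators of nuclear respiratory genes tested, 4 rose and 0 fell with the inhibitor, with a median of 0.16, where 11.1% of all genes rose and 3.76% fell. The rest did not pass the threshold, and with the mimic 0 passed the threshold (limma, 1 at an unadjusted p under 0.05, median -0.09). Gabpb1, the partner of GABPA, rose by 0.47 ± 0.11, Pprc1, a coactivator related to Ppargc1b, by 0.43 ± 0.06, Yy1 by 0.23 ± 0.05 and Nrf1 by 0.22 ± 0.06 (SE; limma, adjusted p of 0.00118 to 0.0323). Ppargc1b, the host gene of miR-378, stood near the level filter, at 3.95 ± 0.05 with the mimic, 3.97 ± 0.05 with the inhibitor and 3.92 ± 0.03 in the controls (SD, n = 3 each).

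Of 35 assembly factors tested, 3 rose and 3 fell with the inhibitor, with a median of -0.03, and the rest did not pass the threshold, against 11.1% of all genes that rose and 3.76% that fell. Lrpprc, which stabilises mitochondrial messenger RNAs, rose by 0.44 ± 0.08, Sco1, which delivers copper to complex IV, by 0.25 ± 0.07 and Cox10, which makes haem for complex IV, by 0.21 ± 0.05. Surf1, a complex IV assembly factor, fell by 0.25 ± 0.06, Cmc2 by 0.22 ± 0.05 and Oxa1l, which inserts proteins into the inner membrane, by 0.20 ± 0.04 (all SE; limma, adjusted p of 0.00574 to 0.0338). With the mimic Oxa1l was the single call of the list and fell by 0.19 ± 0.04 (SE; limma, adjusted p = 0.042), measured against the same controls.

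Of 75 mitochondrial ribosomal protein genes tested, 2 rose and 6 fell with the inhibitor, with a median of -0.02, and 3 fell with the mimic, with a median of -0.04. Of all genes, 11.1% rose and 3.76% fell with the inhibitor, and 2.45% fell with the mimic. The falls with the inhibitor were led by Mrpl23 (-0.46 ± 0.11) and Mrps21 (-0.42 ± 0.09), and those with the mimic by Mrps33 (-0.40 ± 0.07, all SE; limma, adjusted p of 0.0123 to 0.0192). The 2 rises with the inhibitor were those of Mrps18b (0.37 ± 0.10) and Mrps22 (0.22 ± 0.05, both SE; limma, adjusted p = 0.0307 and 0.0218). Of 12 enzymes of the tricarboxylic acid cycle, limma called 0 with either RNA (2 at an unadjusted p under 0.05 with the inhibitor and 0 with the mimic), with medians of 0.09 with the inhibitor and 0.03 with the mimic. The list of carriers and shuttles next to the ATP synthase had 7 genes tested. Ndufa4 was put on this list without being a carrier, and it is counted under complex I by its symbol alone. With the inhibitor Ndufa4 differed by -0.08 ± 0.04 (SE; limma, adjusted p = 0.274). Of these 7, Slc25a5, an exchanger of ADP and ATP, rose by 0.20 ± 0.05 with the inhibitor (SE; limma, adjusted p = 0.0293). With the mimic 0 of them passed the threshold (0 at an unadjusted p under 0.05).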

How the data were processed

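Arrays of 3 samples per group were used as deposited. The log2 values that the authors deposited, 1 for each probe set on each array, come from RMA (robust multi-array average) in Partek 6.5, per the submitters' processing notes. No source used here gives the genome build of the array design. Values ran from 2.64 to 12.5, and no sample column went unused. The platform annotation named 1 gene for 21789 of 28853 probe sets. Gene IDs of all 48 genes matched the RefSeq table (GRCm38.p6), which changed 0 symbols.

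Genes below the 40th percentile of the mean over the 9 arrays, 3.86, were left out. One limma 3.58.1 model (R 4.3.3; eBayes after lmFit, with 4.37 prior and 6 residual degrees of freedom) took all 9 arrays and 11963 genes with 1 coefficient for each group, and Benjamini-Hochberg adjustment ran over all these genes, with a threshold of 0.05. All adjusted p come from limma. Precision is limited by how few arrays there are, at a median residual SD of 0.08. On simulated data of 11963 genes, the inhibitor comparison recovered 58% of 50 genes lowered by 0.3, 44% of 50 genes raised by 0.3 and 96% of 50 genes raised by 0.5 (log2), with 5 false calls. The simulated noise was independent between genes and few genes were changed, where the real comparison called 14.9% of all genes. These shares may therefore not carry over to the real arrays. Python 3.11.15 with matplotlib 3.10.9 drew the figures.

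The genes, the lists and the alternatives were chosen with earlier results of these data known. Every gene of the set is named. Per-array values are given for genes past the threshold in at least 1 comparison and for the extremes of each complex, and further genes by range. Of each list, up to 4 called genes per comparison are named, and Cox10 and Mrps22 beside them, added after their values were seen. Other settings tried were no filter or a stricter one, median centring, quantile normalization, a trend in eBayes, probe sets averaged per gene, a block for the replicate number, fits to the 6 arrays compared, and fits with arrays left out.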

Additional observations from a re-analysis of the deposited data

How the results depend on the processing

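For mimic against control, the number of all genes called was 425, and 774 after quantile normalization, 231 after median centring, 248 in the fit of 6 arrays, 911 without mimic 3 and inhibitor 1 together, and 133 to 582 with single arrays left out. Among the genes of complexes II to V the 1 fall became 0 under the stricter level filter, both scalings, the replicate block, moderation with trend and the fit of 6 arrays, 2 without mimic 3 and inhibitor 1 together, and 0 to 1 with single arrays left out. Falls among all genes were 293 in the main fit, 427 without both arrays and 88 to 395 with single arrays left out. The median of the set was -0.06 without both arrays and -0.06 to 0.00 with single arrays left out.

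For inhibitor against control, 1780 genes were called in all, and 974 to 2790 with single arrays left out. The 8 falls among complexes II to V became 14 in the fit of 6 arrays and without mimic 3 and inhibitor 1 together, and 4 to 15 with single arrays left out. They became 12 after quantile normalization, and 6 after median centring or without the level filter. Falls among all genes were 450, and 651 in the fit of 6 arrays, 831 without both arrays and 232 to 723 with single arrays left out. After quantile normalization 1022 of all genes fell, after median centring 270 and without the level filter 418. The median of the set was -0.16 after quantile normalization, -0.08 after median centring and -0.12 to -0.09 with single arrays left out. For mimic against inhibitor, 2310 to 3669 genes were called in all with single arrays left out, against 3204. The 7 genes of the set that were higher with the mimic became 16 after quantile normalization and 5 to 11 with single arrays left out. The 3 that were lower became 1 after quantile normalization and in the fit of 6 arrays, and 1 to 3 with single arrays left out. Of all genes, 827 were higher, 1670 after quantile normalization and 543 to 1005 with single arrays left out. In all 2377 were lower, 2028 after quantile normalization, 1747 in the fit of 6 arrays and 1637 to 2874 with single arrays left out. The median of the set, 0.10, was 0.17 after quantile normalization, 0.06 without both arrays and 0.08 to 0.11 with single arrays left out. The cause of these shifts was not tested, apart from the fewer arrays in some fits. No called gene of the set changed sign under any alternative run.

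Arrays of different groups share replicate numbers, which the labels tie to no culture or day. Deviations of same-numbered arrays correlated between -0.59 and 0.22, and not every array correlated best with its own number. With the replicate block 289, 1575 and 3028 genes were called in mimic against control, inhibitor against control and mimic against inhibitor, and among complexes II to V 0, then 8 lower, then 8 higher and 2 lower, with Cox6c losing and Atp5k gaining a call in inhibitor against control, and Uqcrc1 losing and Atp5k gaining a call in mimic against inhibitor.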
